A study of Drosophila melanogaster with 2 samples.

Results

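Binding of pan at 8 genes of tracheal and epidermal transcription factors was described: trh, rib, vvl, esg, salm, salr, ovo and grh. The genes were chosen by name, all 8 were found in the annotation, and they stand among 13968 protein-coding genes on the main chromosome arms. The territory of a gene was its body and 2 kb either side, and a peak was assigned to it when the peak's summit fell inside. Under the conservative pooled list of peaks, 4 of the 8 genes held a peak (trh, rib, ovo and grh), 2 more (esg and salm) held one only in a longer pooled list, and vvl and salr held none in either list. The share of all protein-coding genes with a conservative peak in their territory was 39.7%, and the count of 4 in 8 is close to the share among genes in the same range of territory length, given below.

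The material was whole embryos of Drosophila melanogaster aged 0 to 24 h, from transgenic flies carrying pan fused to eGFP. Chromatin was sheared by sonication, precipitated with an antibody against GFP and sequenced. There was 1 group of 2 biological replicates, which the labels give as separate samples, and no second genotype, treatment or stage. A control is named in the labels and was not used here. The labels do not give the promoter behind the fusion gene or the level of the fusion protein, and the embryos mix all tissues and all embryonic stages. Binding in tracheal or epidermal cells therefore cannot be told apart from binding in any other cell, and no expression was measured that could show where the 8 genes were active. Read depth is unknown from the peak lists.

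The tracheal system of the fly embryo is a network of epithelial tubes that invaginates from the ectoderm, and the epidermis is the ectodermal sheet that secretes cuticle and forms trichomes. Trachealess (trh), a bHLH-PAS factor, gives cells the tracheal fate together with the POU factor Ventral veins lacking (vvl), and Ribbon (rib), a BTB-domain nuclear protein, is needed for the tubes to grow. Escargot (esg), a zinc-finger protein of the Snail family, acts in the fusion cells that join neighbouring tubes, and Spalt major (salm) specifies the dorsal trunk. Spalt-related (salr) is the paralogue of salm and its neighbour on the chromosome. The somatic product of ovo, also called Shavenbaby, directs trichome formation in the epidermis, and Grainyhead (grh) activates genes of the epidermal barrier and of its repair. Pan is the fly TCF, the DNA-binding effector of Wingless signalling. It reads the TCF core through its HMG box and a helper site through its C-clamp, and Wingless signalling is known to act on dorsal trunk fate in the trachea and on trichome pattern in the epidermis.

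The DNA at the peak summits is shown first. Summits differed, also within trh, in whether they lay near the letters that pan is known to read. Each TCF core shown is at a peak outside the conservative list, and 9.47% of all conservative summits had a TCF core within 50 bp. Windows of 101 bp centred on the summit were read on the + strand from NCBI RefSeq's Release 6 genome (dm6). Capitals mark matches, on either strand, to any of the 9 motifs searched, and all other bases are in lower case. The first window is the strongest summit at trh and holds no match. The second is a weaker summit inside trh with 1 TCF core, CTTTGAA, 21 to 27 bp to the right of the summit. The ovo pair are the conservative summits of that gene, which hold none.
trh chr3L:377686-377786: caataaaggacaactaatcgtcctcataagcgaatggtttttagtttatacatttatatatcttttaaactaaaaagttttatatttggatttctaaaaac
trh chr3L:372439-372539: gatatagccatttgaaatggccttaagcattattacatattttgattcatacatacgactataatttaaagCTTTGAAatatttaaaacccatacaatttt
ovo chrX:5046694-5046794: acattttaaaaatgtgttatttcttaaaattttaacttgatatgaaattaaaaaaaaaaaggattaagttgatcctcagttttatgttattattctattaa
ovo chrX:5062105-5062205: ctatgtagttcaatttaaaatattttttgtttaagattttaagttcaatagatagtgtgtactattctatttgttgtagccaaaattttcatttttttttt
The next set is from genes with no conservative peak. The salm stretch is cut to the 69 bases upstream of the gene, and holds the helper site GCCGCCA and the TCF core CTTTGTT, with the core starting 39 bp from the summit. The esg window lies past the gene's 3′ end and holds no match, and the vvl window holds 4 GAGAG matches and no TCF core.
salm chr2L:11445615-11445683: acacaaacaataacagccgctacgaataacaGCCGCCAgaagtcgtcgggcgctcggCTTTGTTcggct
esg chr2L:15337396-15337496: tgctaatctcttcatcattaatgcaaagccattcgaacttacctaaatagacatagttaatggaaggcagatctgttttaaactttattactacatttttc
vvl chr3L:6789685-6789785: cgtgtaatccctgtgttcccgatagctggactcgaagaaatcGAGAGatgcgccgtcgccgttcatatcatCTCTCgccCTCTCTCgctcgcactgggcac
A match is a description of the letters and not a bound site, and the lack of one says only that these letters were not in this window.

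The strongest peak of each bound gene was above the median of the conservative list, and so was the second rib peak, while the second ovo and grh peaks were below it. The authors' signal value, whose scale is not given in the sources used here, was used to rank and describe peaks within a list. It was also compared between the 2 replicates by ratio, although whether they share a scale is not stated. The strongest peaks of trh, rib, ovo and grh had pooled signals of 252.4, 240.8, 236.1 and 206.4, with a median of 238 and an SD of 19.6 over the 4 genes. For the 5549 protein-coding genes with a conservative peak the median of the strongest signal was 164, and the quartiles were 105 and 287. The 4 genes thus lay close to each other, all above that median and below the upper quartile. The 5549 genes were not matched to them for territory length. Over all single peaks, not only the strongest of each gene, the conservative list had a median signal of 120 and a range of 2.03 to 2924. The territories of the 8 genes cover 167 kb and held 7 conservative summits, or 4.19 per 100 kb, beside 4.62 per 100 kb over the main arms.

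The territories of these genes are longer than those of most genes, from 6.27 kb at esg to 45.7 kb at grh, where the median protein-coding gene has 6.16 kb. Among the 6279 protein-coding genes with a territory in that range, 50.3% held a conservative peak. Length was not matched gene by gene within that range. For the longer list and the replicates' lists no share over that range was computed, so their counts stand beside all genes, most of them shorter. In the longer list 6 of the 8 genes held a peak and 42.5% of all genes did. In replicate 1 the thresholded list gave 4 of the 8 genes and 32.4% of all genes. In replicate 2 it gave 4 of the 8 genes and 36.5% of all genes. The genes were trh, rib, ovo and grh in each replicate, which are also the 4 of the conservative list.

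**Figure D1:**
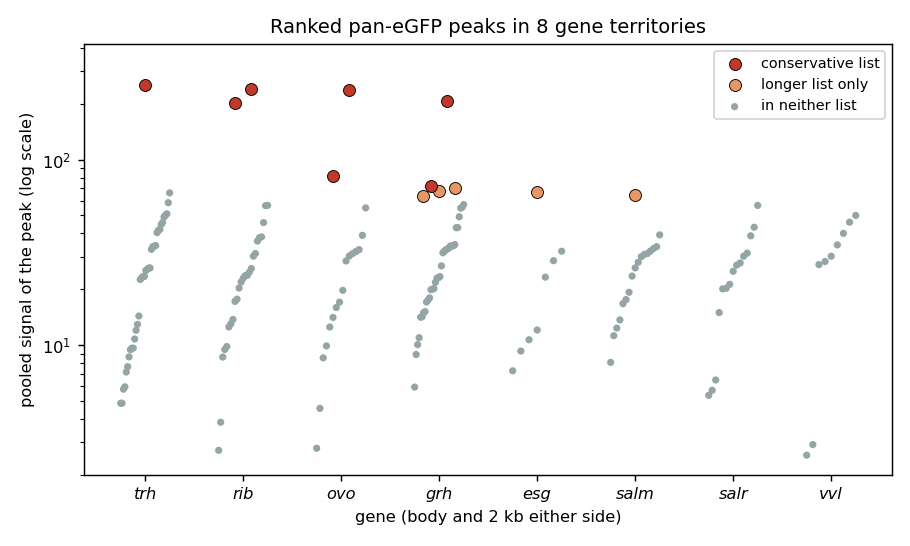
Pooled signal (vertical, log scale) of each ranked peak in the territory of each of 8 genes (horizontal). Each point is 1 peak, spread sideways for sight: red peaks are in the conservative list, orange ones in the longer list only, grey ones in neither. The strongest peaks of trh, rib, ovo and grh lie between 206.4 and 252.4, and no peak of esg, salm, salr or vvl exceeds 66.8.

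The ranked list, which holds peaks whether or not they recur, had peaks at all 8 genes. It gave 37 peaks at trh, 27 at rib, 9 at vvl, 8 at esg, 18 at salm, 15 at salr, 18 at ovo and 39 at grh, or 171 in all. Of the 171, 7 were in the conservative list (4.09%), and of all 122939 ranked peaks on the main arms 5.17% were. Per 10 kb of territory the count was highest at rib (17.6) and lowest at ovo (6.75), with 10.2 over the 8 territories and 8.94 over the arms. Per 10 kb, the number of ranked peaks did not follow the strength of the strongest: ovo had the fewest and a peak of 236.1, and esg had 12.8 and none over 66.8. By plain count, grh, trh and rib had the most, and ovo had as many as salm. Overlapping peaks were counted singly, and merging them would take away 3 of the 8 at esg and 12 of the 37 at trh. The 7 conservative peaks ran between 71.6 and 252 in signal (median 206), the 5 peaks of the longer list alone between 63.6 and 70.1 (median 66.8), and the 159 in neither list between 2.55 and 66.2 (median 23.6). The last 2 groups overlap in signal. The strongest peak in neither list was the weaker trh peak at 66.2, above the longer-list peaks of 64.8 at salm and 63.6 at grh. The lists were thresholded on IDR, not on signal.

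At trh, the master gene of tracheal fate (FBgn0262139, chr3L:366524-392633, minus strand, 26.1 kb), 1 conservative peak lay at chr3L:377566-377905. Its signal was 141.3 in replicate 1, 104.6 in replicate 2 and 252.4 in the pooled list, and it passed the threshold in both replicates. It ranked 1063 among the 6359 conservative peaks, with 83.3% of them weaker. Its summit, at 377736, was 420 bp upstream of the inner TSS, which 5 of the 7 annotated transcripts use, and in intron 4 of the 2 longer transcripts. The outer TSS lies 14897 bp upstream of it, so the strong peak sits at the inner promoter and the outer one had no peak in either pooled list. This was the only conservative peak within 1 kb of an own TSS at any of the 8 genes.

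The second peak of trh, at chr3L:372319-372658, lay in an intron of all 7 transcripts, 4827 bp downstream of the inner TSS. Its signal was 12.9 in replicate 1, 50.5 in replicate 2 and 66.2 pooled. It passed the threshold in replicate 2 alone. The ratio of replicate 1 to replicate 2 was 0.255. The 5th and 95th percentiles over the 6000 conservative peaks with both values were 0.569 and 1.72. No ratio was computed over all ranked peaks, and the conservative ones were selected for recurrence, unlike this trh peak. Its global irreproducible discovery rate (IDR), which is low for peaks that recur at the same rank, was 65.9% in the ranked list that holds the conservative peaks and 1.09% in the ranked list that holds the longer list. It is the intronic trh window with the TCF core shown above, and it was in neither pooled list.

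At rib, the gene for the BTB protein of tube growth (FBgn0003254, chr2R:19270078-19281396, plus strand, 11.3 kb), 2 conservative peaks lay in the first intron of rib-RB, the transcript that starts at the gene's 5′ end. The stronger one, at chr2R:19272249-19272358, had a signal of 129.4 in replicate 1, 108.4 in replicate 2 and 240.8 pooled, and passed in both replicates. The other one, at chr2R:19271289-19271628, had 133.4 in replicate 1, 53.6 in replicate 2 and 200.9 pooled, and passed in replicate 1 only. Both replicates held a peak at each place, and the 2 summits lay 2252 and 1381 bp downstream of the TSS of rib-RB. The replicates were close at the stronger peak, with a ratio of 1.19, and apart at the other, with a ratio of 2.49, beyond the 95th percentile of 1.72 among conservative peaks. With 2 peaks in a territory of 15.3 kb, rib had 13.1 conservative summits per 100 kb, the highest of the 8 genes.

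At ovo, the gene of the trichome regulator (FBgn0003028, chrX:5048273-5070929, plus strand, 22.7 kb), 1 conservative peak lay before the gene and 1 inside it. The upstream peak, at chrX:5046574-5046913, had a signal of 146.3 in replicate 1, 87.0 in replicate 2 and 236.1 pooled, and passed in both replicates. Its summit was 1529 bp upstream of the outermost TSS, that of ovo-RE. The inner peak, at chrX:5061985-5062324, had 50.1 in replicate 1, 32.8 in replicate 2 and 81.9 pooled, and passed in neither replicate, so it rests on the pooled comparison. It lay in intron 1 of 2 transcripts, 1689 bp upstream of the TSS of ovo-RC. Both summits are also inside the annotated lncRNA:CR44833, which overlaps the gene, and peaks cannot be assigned to one rather than the other. At both places replicate 1 was the higher, with ratios of 1.68 and 1.53.

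At grh, the gene of the epidermal barrier regulator (FBgn0259211, chr2R:17801132-17842820, plus strand, 41.7 kb, with 5 annotated TSS), 2 conservative peaks and 3 peaks of the longer list alone were found. The strongest, at chr2R:17804903-17805006, had a signal of 105.0 in replicate 1, 115.1 in replicate 2 and 206.4 pooled, and passed in both replicates. The other conservative peak, at chr2R:17803758-17804097, had 41.0 in replicate 1, 39.2 in replicate 2 and 71.6 pooled, and passed in neither replicate. The replicates were close at both, with ratios of 0.912 and 1.05. Both summits lay in introns of 5 of the 8 transcripts, 2068 and 1061 bp downstream of the TSS of grh-RL. Downstream of the 5 TSS, in the last part of the gene, no peak reached either pooled list.

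The 3 other grh peaks were weak and each lay near a different TSS. The summit 647 bp upstream of the TSS of grh-RK had 42.4 in replicate 1, 26.5 in replicate 2 and 70.1 pooled. The summit 69 bp into the 5′ UTR of grh-RP had 25.2 in replicate 1, 41.6 in replicate 2 and 67.7 pooled, and the summit 922 bp upstream of the TSS of grh-RO had 24.0 in replicate 1, 39.9 in replicate 2 and 63.6 pooled. None of these passed in either replicate alone. The grh-RP summit also lies inside the antisense RNA gene asRNA:CR45270. It was the only one of the 3 with a motif match, 1 helper site.

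**Figure D2:**
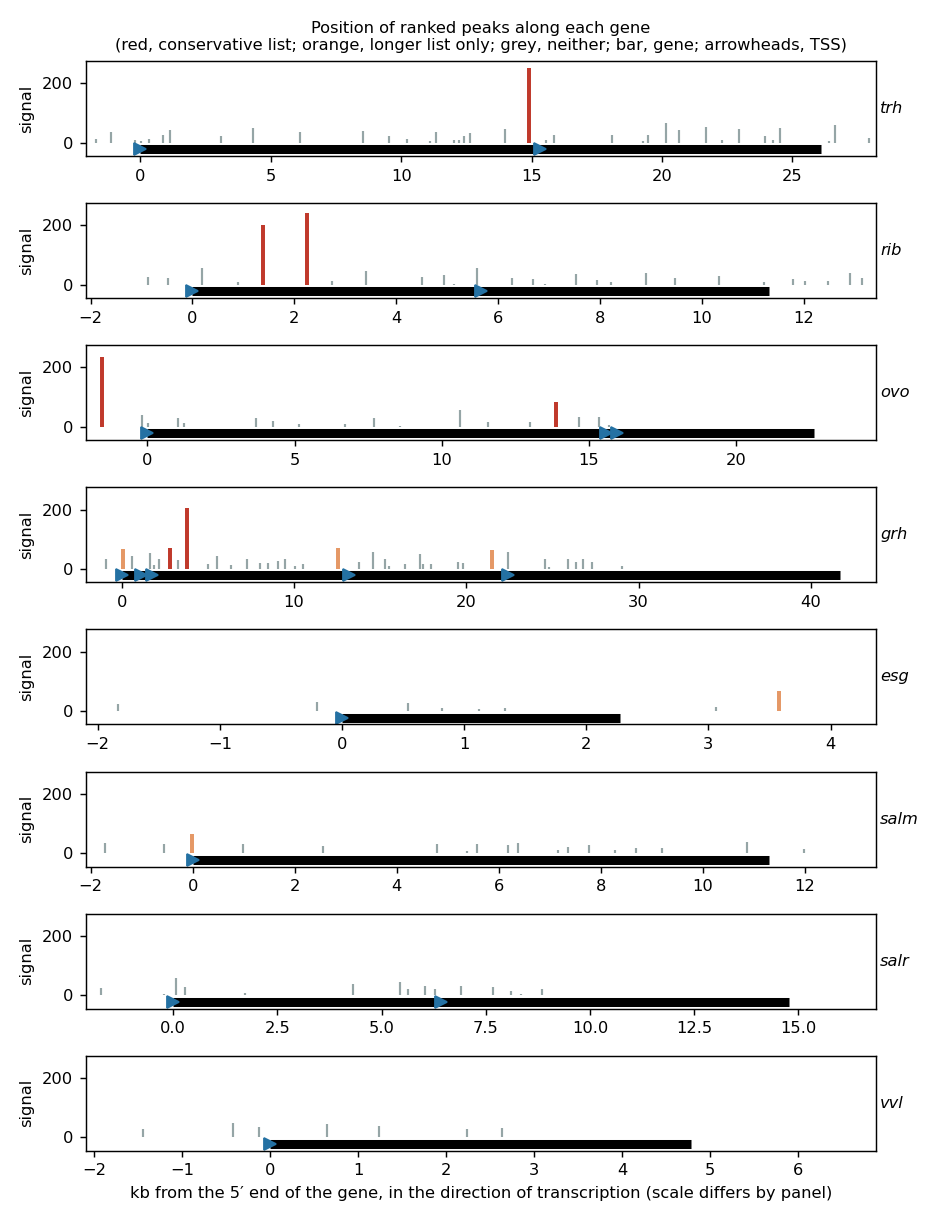
Distance of each ranked peak's summit from the gene's 5′ end (horizontal, kb, scale differing by panel) and its pooled signal (vertical), with 1 panel per gene. Red lines are conservative peaks, orange ones are in the longer list only and grey ones in neither; the black bar is the gene and arrowheads are TSS. The trh peak stands by the inner TSS, both rib peaks and the strongest grh peak stand within introns, and the strongest ovo peak stands before the gene.

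At esg, the gene of the fusion-cell factor (FBgn0287768, chr2L:15333866-15336138, plus strand, 2.27 kb), the 1 peak of the longer list lay past the 3′ end, at chr2L:15337276-15337615. Its signal was 25.9 in replicate 1, 37.7 in replicate 2 and 66.8 pooled. It passed in neither replicate, and its IDR was 2.4% in the ranked list that holds the conservative peaks and 0.854% in the one that holds the longer list. The threshold of 1% lies between these values. The summit was 3580 bp from the TSS of esg. No peak of the conservative list lay in the territory of 6.27 kb, the shortest of the 8.

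At salm, the dorsal trunk selector (FBgn0261648, chr2L:11434311-11445614, minus strand, 11.3 kb), the 1 peak of the longer list covered the start of the gene, at chr2L:11445463-11445802. Its signal was 26.7 in replicate 1, 38.8 in replicate 2 and 64.8 pooled, and its IDR was 1.93% and 0.626% in the same 2 ranked lists. Its summit was 19 bp upstream of the only TSS. The window holds both a TCF core and a helper site, as 18 of the 7074 windows of the longer list did (0.254%) and 13 of the 6359 conservative windows (0.204%). It passed in neither replicate.

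At salr, the paralogue of salm (FBgn0000287, chr2L:11358873-11373636, plus strand, 14.8 kb), and at vvl, the POU factor gene (FBgn0086680, chr3L:6790158-6794941, plus strand, 4.78 kb), the strongest ranked peaks missed both pooled lists. The salr peak, with a summit 78 bp into the 5′ UTR of salr-RC, had 28.8 in replicate 1, 31.4 in replicate 2 and 56.6 pooled. The vvl peak, 423 bp upstream of the TSS that all 5 transcripts share, had 25 in replicate 1, 14.9 in replicate 2 and 50 pooled. Their IDR values were 2.0% and 3.4% at salr in the 2 ranked lists, and 53.2% and 5.64% at vvl, so that salr came closer to the threshold of 1% than vvl in both lists. The salr window holds 2 helper sites and 1 GAGAG match. At salm and salr alike, the strongest peak within the territory lay at the outermost TSS.

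Counted at the own TSS within 1 kb, the conservative list called 1 of the 8 genes (trh), whereas it called 25.6% of all protein-coding genes. The longer list called 3 (trh, salm and grh) and 28% of all genes. Of the 7 conservative summits, 1 (14.3%) was within 1 kb of a TSS of any gene, where 53.9% of all conservative summits were. The other 6 lay 1061 to 2252 bp from the nearest TSS, each time one of the same gene. Placed by annotation, 5 of these 6 were intronic and the upstream ovo summit was outside the gene.

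**Figure D3:**
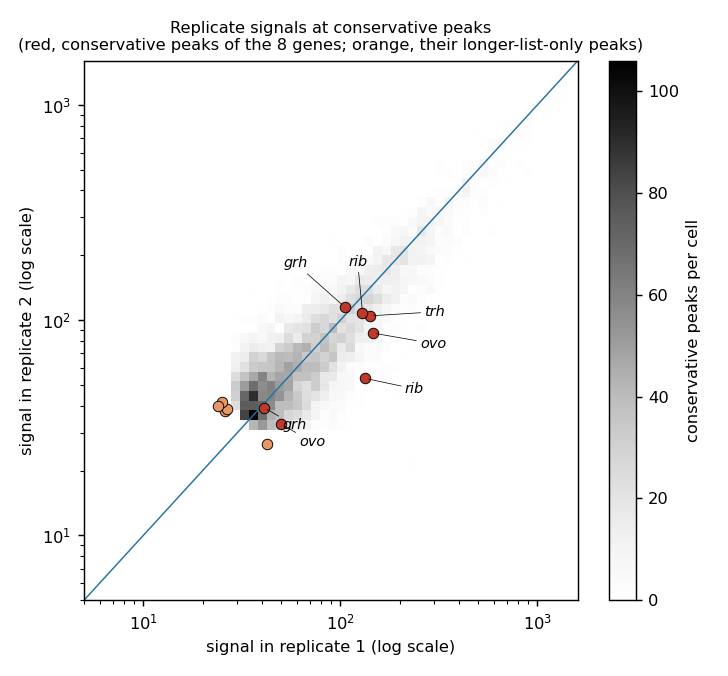
Signal in replicate 1 (horizontal, log scale) and replicate 2 (vertical, log scale) of conservative peaks. Grey cells count all conservative peaks with both values, the line marks equal signals, red points are the 7 conservative peaks of the 8 genes and orange points their 5 peaks in the longer list only. The rib peak at 133.4 and 53.6 lies farthest from the line among the red points.

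Of the 7 conservative peaks, 4 passed the threshold in both replicates (57.1%), 1 in replicate 1 only and 2 in neither (28.6%). Among all conservative peaks 53% passed in both and 20.9% in neither. The 4 that passed in both were the strongest peak of each of trh, rib, ovo and grh. Of the 7, 6 had a higher signal in replicate 1 and the strongest grh peak a higher one in replicate 2, while the median ratio over 6000 conservative peaks was 0.989. Among the 5 peaks of the longer list alone, 4 were higher in replicate 2, those of esg and salm included. These signals were deposited per list, and whether the 2 replicates share a scale is not stated.

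The strongest peaks of trh, rib, ovo and grh are the same calls in both pooled lists, so their places there could not differ. Replicate peaks were matched to them by an overlap of 50% of the shorter, which bounds how far apart the summits can lie. Summits of the trh, rib, ovo and grh peaks that passed in both replicates were at most 3 bp from the pooled summit in replicate 1 and at most 53 bp from it in replicate 2. Their −log10 global IDR lay between 4.58 and 4.84 in the ranked list that holds the conservative peaks and between 4.88 and 5.0 in the other. The second ovo and grh peaks lay near the threshold of 2, with 2.12 and 2.36 at ovo and 2.41 and 2.17 at grh. The longer-only peaks were at 1.37 to 1.71 in the first list, below both, and at 2.01 to 2.2 in the other, where they overlap the grh value.

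**Figure D4:**
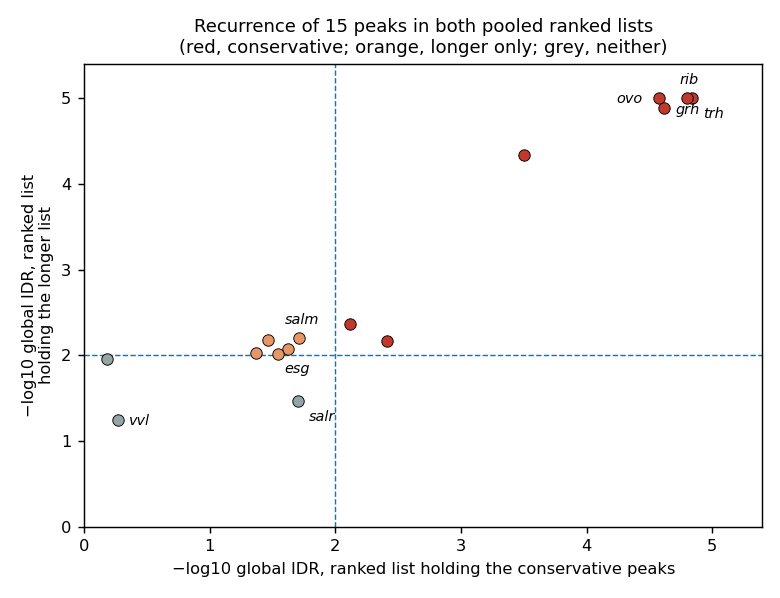
The −log10 global IDR of 15 peaks at the 8 genes in the ranked list that holds the conservative peaks (horizontal) and in the one that holds the longer list (vertical). Dashed lines mark the threshold of 2, colours are red for conservative, orange for longer list only and grey for neither, and names stand by each gene's strongest peak. The peaks of esg and salm lie above the threshold on the vertical axis and below it on the horizontal one.

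None of the 7 conservative windows at these genes held a TCF core (0 of 7, exact Clopper-Pearson 95% interval 0% to 41%), and 9.47% of all conservative windows did. The form CTTTGAA was searched, and so were the form CTTTGAT, the form CTTTGTA and the form CTTTGTT. The helper site (GCCGCCA or GCCGCCG) was in 2.31% of all conservative windows and in none of the 7. The interval includes the share of the whole list. Windows of 25 or 100 bp either side of the summit also held no TCF core at the 7.

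The sites of the factors themselves were sought in the same windows, again on both strands. The Grainyhead site AACCNGTT was in 1.37% of all conservative windows, the Trachealess site TACGTG in 1.7%, the Snail-family E-box CAGGTG in 2.64% and the POU octamer ATGCAAAT in 1.6%. GAGAG, which the GAGA factor binds, was in 10.9%, the DREF site TATCGATA in 1.54% and the Zelda site CAGGTA in 1.82%. None of the 9 motifs was in any of the 7 windows at trh, rib, ovo and grh. Those windows were poor in G and C, at 16.8% to 29.7% with a median of 25.7%, against a median of 33.7% in all conservative windows. Of all conservative windows, 36.1% had a GC content of 29.7% or less. The part of base composition in the lack of matches was not tested. The longer-only windows had 24.8% to 54.5%, with esg at 30.7% and salm at 54.5%.

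Around the genes, conservative peaks were found in the stretch up to the next protein-coding gene. Past the 3′ end of vvl, which had none in its territory, the 117 kb to Prat2 held 8 conservative peaks, or 6.83 per 100 kb. The strongest, with its summit 21465 bp past the gene, had 152.9 in replicate 1, 159.9 in replicate 2 and 316.4 pooled, more than any peak within the 8 territories. The next, 29080 bp past the gene, had 119.8 in replicate 1, 116.3 in replicate 2 and 232.6 pooled. Both passed in both replicates and have vvl as the gene with the nearest TSS, at 26248 and 33863 bp. Another 4 of the 8 had pooled signals of 100.4 to 191.7, and the 2 weakest, at 54.0 and 20.8, lay beside each other and match the same peak of 34.5 in replicate 2. Distance alone does not say which gene such a peak acts on.

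Upstream of ovo, a further conservative peak 6562 bp before the gene had 145.6 in replicate 1, 133.9 in replicate 2 and 281.1 pooled, and passed in both replicates. It is stronger than either ovo peak in the territory. In the 60.7 kb between salr and salm lay 2 conservative peaks, at 11279 and 22163 bp past salr. The nearer had 42.6 in replicate 1, 57.0 in replicate 2 and 90.9 pooled and passed in replicate 2, and the farther had 46.8 in replicate 1, 35.0 in replicate 2 and 71.1 pooled and passed in neither. Past esg, a peak 3813 bp from the gene had 35.2 in replicate 1, 42.2 in replicate 2 and 80.0 pooled. The stretches on both sides of rib and grh up to the next gene held none, and there the next gene lay at most 7.78 kb away.

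**Figure D5:**
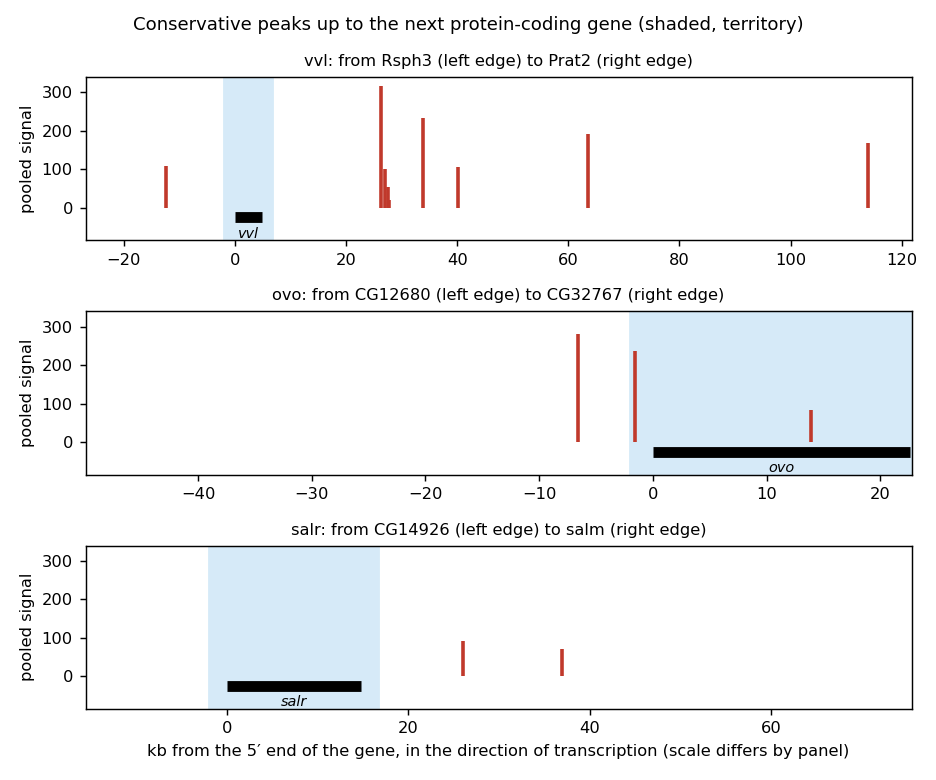
Pooled signal (vertical) of conservative peaks by distance from the 5′ end (horizontal, kb, scale differing by panel) for vvl, ovo and salr, from 1 neighbouring protein-coding gene to the next. Red lines are peaks, the black bar is the gene and the shaded band its territory. The vvl territory is empty and the strongest peak past it reaches 316.4, while at ovo the strongest peak, at 281.1, stands before the territory.

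Other genes of the same tissues were counted from lists of 27 tracheal system genes and 26 epidermal genes. Of the tracheal genes 17 held a conservative peak, 18 a peak of the longer list and 17 a peak in each replicate's list, with a median territory of 25.5 kb. Of the epidermal genes 15 held a conservative peak, 15 a longer-list one, 10 one in replicate 1 and 12 one in replicate 2, with a median territory of 18.9 kb. Over all protein-coding genes, whose median territory is shorter at 6.16 kb, the share with a conservative peak was 39.7%. It was 42.5% for the longer list, 32.4% for replicate 1 and 36.5% for replicate 2. No share over genes of like length was computed for the tracheal and epidermal lists. The strongest signal of the bound genes had a median of 217 in the tracheal list and 104 in the epidermal list. For all bound protein-coding genes, not matched for length, that median was 164. Within 1 kb of their own TSS, 11 of the 27 tracheal and 8 of the 26 epidermal genes held a conservative peak, beside 25.6% of all protein-coding genes.

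Among tracheal genes, the strongest conservative peaks at an own TSS were at ed, which encodes an adhesion molecule, aop, an Ets repressor of receptor signalling, Atpalpha, a subunit of the sodium pump, stumps, the adaptor of FGF receptors, and sima, the hypoxia-inducible factor. The ed peak had 144.2 in replicate 1, 134.1 in replicate 2 and 293.5 pooled, and the aop peak 101.5 in replicate 1, 96.1 in replicate 2 and 179.6 pooled. The Atpalpha peak had 81.9 in replicate 1, no matching peak in replicate 2 and 149.8 pooled. The thresholded list of replicate 2 did hold 1 summit in the Atpalpha territory, but its peak did not meet the rule for a match. The stumps and sima peaks reached 146.2 and 145.4 pooled, with more signal in replicate 1 at both. The trh peak at its inner TSS, 252.4, lies between those of ed and aop. Chosen after their values were seen, tgo, whose product pairs with Trachealess, and btl, the FGF receptor of the trachea, had no peak in any of the 4 thresholded lists. The FGF ligand gene bnl, chosen likewise, had 1 conservative peak of 275.9, more than 1 kb from its TSS.

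Among epidermal genes, the strongest at an own TSS were Cad96Ca, which encodes the wound-response kinase Stitcher, sr, a tendon cell factor, kay, the fly Fos, cora, a septate junction protein, and crb, an apical polarity protein. The Cad96Ca peak had 134.8 in replicate 1, 80.6 in replicate 2 and 223.5 pooled. The other 4 lay close to each other, at 104.2 (sr), 104.2 (kay), 104.0 (cora) and 101.6 (crb) pooled. Of these, sr was the higher in replicate 1 and kay, cora and crb in replicate 2. The strongest conservative peak at sr as a whole, 470.9, and at crb, 300.6, lay elsewhere in their territories.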

How the data were processed

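Pan-eGFP ChIP-seq in whole embryos was deposited as peak lists on dm6, per the file headers, for 2 biological replicates and for their pool: 4 ranked lists and 4 lists thresholded on IDR. Each peak carries, as deposited by the authors, a score and a signal value, and in the ranked lists a −log10 global IDR. The aligner, peak caller and signal scale are not given in the sources used here, read depth is unknown, and 10 columns of values in each ranked list, 8 of them unnamed, were not used. Only signal, IDR and summits were analysed. A thresholded IDR of 0.01 (−log10 of 2) bounds the authors' lists.

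Gene models were Ensembl release 115 (BDGP6), without transposable elements and pseudogenes. Ends of the 8 genes equal those of the RefSeq annotation of the same assembly, and 0 peaks ran past a chromosome end. Peaks on the main arms were kept: 6359 conservative, 7074 longer, 4549 and 5348 in replicates 1 and 2. Summits were counted in gene bodies and 2 kb either side and within 1 kb of TSS. Replicate peaks were matched by 50% overlap of the shorter peak. Motifs were sought in 101 bp at summits. No test between groups was possible, and counts stand beside those of all genes. The scripts were tested on simulated data. Tools were Python 3.11.15, numpy 2.4.6, pandas 2.3.3, scipy 1.17.1 and matplotlib 3.10.9. The 8 genes and the lists were chosen with earlier results of these data known. All 8 genes are named, neighbours only where a peak of these genes touches them or as ends of an interval, and from other lists up to 5 genes by the strongest conservative peak within 1 kb of an own TSS. In addition tgo, btl, bnl, pnt, pyd and dpy, and the counts at aop, were chosen after their values were seen. From the lists, 3 genes were matched through RefSeq synonyms. Alternatives were the longer list, each replicate's list, an IDR threshold, other territories, TSS and motif windows, merged peaks and any overlap.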

Additional observations from a re-analysis of the deposited data

How the results depend on the processing

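Of 50 alternative values for the 7 results, 46 stayed within their limits and 4 moved. Some of the 46 could not move, so their number overstates how far the results were tested. The IDR setting applied again the threshold that already bounds the authors' lists, and it returned the main value of each result it covered. The count at the own TSS does not use the territory, so the settings that changed the territory could not alter it. The limit was a fixed ratio to the main value for counts and the SD over the bound genes for the median signal. For shares it was the exact 95% interval. Under the longer list, genes with a peak at their own TSS numbered 3 and summits in the territories 12. Genes with a peak in their territory rose there from 4 to 6, which counted as within the limit. With territories of 5 kb either side the summits numbered 11 and the genes with a peak 5. Counting any base of a peak gave 2 genes at their own TSS, since the weaker grh summit is 1061 bp from its TSS and its peak reaches closer. With each replicate's list alone, summits were 5 and genes with a peak 4 in both. The share of the 7 summits within 1 kb of any TSS, 14.3%, was 41.7% over the 12 of the longer list, which also counted as within its limits. No paired analysis was possible because there is 1 group and no test. With 2 replicates, 8 genes and 7 conservative peaks, shares carry wide intervals, and the lists give no read depth behind any value.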

Other observations

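The nearest conservative peak lay 49815 bp from the TSS of salm and 19626 bp from a TSS of salr, both in the interval between the genes. The 40.5 kb upstream of trh to CG13891 held 1 conservative peak of 80.7 pooled, 36.7 in replicate 1 and no matching peak in replicate 2. Upstream of vvl, 1 conservative peak of 109.2 lay 12429 bp before the gene, with 49.5 in replicate 1 and 60 in replicate 2, and it passed in replicate 2. Among tracheal genes, chosen after their values were seen, pnt and pyd each held 12 conservative peaks in territories of 59.9 and 109 kb. The aop territory of 26.3 kb held 9, of which 5 lay within 1 kb of an own TSS. Long territories did not always hold many: dpy, chosen likewise, held 1 in 141 kb. The main arms held 4.62 per 100 kb.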
